A study of Mus musculus with 12 samples.

Results

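Eph receptors and ephrins are cell surface proteins by which neighbouring cells attract or repel each other, and 10 genes of this family, picked with earlier results of these data in view, are described: the receptor genes Epha3, Epha4, Epha5, Epha7, Ephb1 and Ephb2 and the ephrin genes Efna2, Efna5, Efnb1 and Efnb2. The platform's probe table named 9 probes for 8 of these 10 genes, out of 21998 probes in all. It listed no probe under Ephb1 or Ephb2, which are not analysed here. The tissue was neocortex of mouse embryos at stage E13.5, and the rostral end of the neocortex was set against its caudal end, leaving out the middle. Rostral and caudal RNA of the same pool of 3 embryos were labelled with different dyes, Cy3 and Cy5, and competed on the same array. MF1 mice, which are outbred, gave 3 pools, and C57 mice, which are inbred, gave the other 3. Each pool was on 2 arrays with the dyes exchanged, and no mutation or treatment differed between the groups. Values are rostral over caudal, on the log2 scale and relative to the median of each array, so levels, and with them the presence of cortical marker transcripts, cannot be read from these data. In such bulk tissue, a difference in the share of expressing cells and a difference in RNA per cell cannot be told apart.

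Eph receptors are receptor tyrosine kinases, and ephrins are their membrane-bound ligands. Ephrins of the A class are held in the membrane by a lipid anchor and bind mainly EphA receptors. Those of the B class span the membrane and bind mainly EphB receptors, although EphA4 also binds B class ephrins. Signals run into both cells, and repulsion is the usual outcome for a growing axon. In the developing forebrain the family is known for guiding thalamic axons to cortical areas and for sorting cells within the cortex, and several of its genes are expressed in gradients or area-like patterns.

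The promoters of the 3 genes of smallest p below, Epha7, Efnb2 and Efna2, are shown because they stand for both sides of the pattern, receptor and ligand. Each run is the RefSeq sequence of build GRCm38.p6 from 250 bases before to 50 bases after an annotated start, read 5′ to 3′ on the strand of the gene. Capitals mark 3 common promoter motifs found on either strand by exact match: the GC box (GGGCGG), the CCAAT box (CCAAT) and the TATA box (TATAAA).
Epha7: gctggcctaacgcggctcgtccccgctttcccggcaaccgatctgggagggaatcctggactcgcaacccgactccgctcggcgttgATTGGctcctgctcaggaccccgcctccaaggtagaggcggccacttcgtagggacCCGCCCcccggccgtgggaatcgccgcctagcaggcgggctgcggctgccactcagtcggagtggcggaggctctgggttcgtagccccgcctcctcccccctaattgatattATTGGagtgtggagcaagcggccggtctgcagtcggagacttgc
Efnb2: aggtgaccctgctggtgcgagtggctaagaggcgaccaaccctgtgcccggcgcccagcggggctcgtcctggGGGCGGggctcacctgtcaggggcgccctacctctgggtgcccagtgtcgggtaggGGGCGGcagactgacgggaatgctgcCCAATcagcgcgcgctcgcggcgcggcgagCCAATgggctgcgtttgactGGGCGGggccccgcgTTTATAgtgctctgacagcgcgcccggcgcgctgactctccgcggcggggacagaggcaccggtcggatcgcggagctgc
Efna2: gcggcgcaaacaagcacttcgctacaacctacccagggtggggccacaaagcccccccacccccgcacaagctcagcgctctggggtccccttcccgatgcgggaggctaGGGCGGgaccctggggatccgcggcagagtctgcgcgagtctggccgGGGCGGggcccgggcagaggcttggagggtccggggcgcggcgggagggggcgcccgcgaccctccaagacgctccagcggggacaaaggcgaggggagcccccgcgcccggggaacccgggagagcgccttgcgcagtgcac
The Epha7 window is chr4:28812881-28813180 on the plus strand, the first listed of its 2 windows. That of Efnb2 is chr8:8661193-8661492 on the minus strand and that of Efna2 is chr10:80179232-80179531 on the plus strand. These windows held 28, 35 and 31 CpG dinucleotides, against a median of 7 over 32851 promoter windows. The GC box was present in 6 of the 8 measured genes and in 35.7% of all windows, the CCAAT box in 4 of 8 and in 37.4%, and the TATA box in 1 of 8, Efnb2, and in 13.6%. The TATA match of Efnb2 is on the opposite strand. The short site bound by nuclear receptors (AGGTCA) was in 0 of 8 windows and in 16.3% of all windows. The homeodomain core (TAATTA, which is its own reverse complement) was in 1 of 8, Epha5, and in 5.29%. No listed motif overlapped another in the 3 printed windows.

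The sign of the ratios rests on an assumption. Per the labels, rostral RNA was in Cy5 on 1 array of each pool and in Cy3 on the other, and the deposited values were turned accordingly, with Cy5 over Cy3 assumed; were it Cy3 over Cy5, every direction and rank given here would be turned round. Known graded genes bear on this choice. Of 5 tested genes of caudal cortex 4 were below 0, Crym at only -0.05, and 6 of 8 of rostral cortex were above 0. Their medians were -0.38 and 0.23, on the sides that go with the assumed sign. These lists were chosen with earlier results of these data known, so they are no independent check of it. Emx2, a caudal gene, was at 0.09, and Fgf17 and Spry4, on the rostral list, were at -0.05 and -0.04. With arrays turned in this way Nr2f1, a nuclear receptor gene expressed most strongly in caudal cortex, averaged -1.14 ± 0.57 (SD, n = 6 pools), and with no array turned it averaged -0.01 ± 0.12. That contrast, like the correlations that follow, bears on whether the dyes were exchanged and not on which dye is the numerator. Before turning, deviations from the mean of the arrays with the same strain and dye orientation correlated between both arrays of a pool at -0.35 to -0.15 in 5 pools and at 0.00 in C57 pool 3 (Spearman, across 13902 or 16191 probes, which share their arrays). Between 17998 and 20997 probes had a value on an array, and the spread of ratios, as an SD from the median absolute deviation, was 0.38 to 0.64 on MF1 arrays and 0.64 to 0.88 on C57 arrays. Each array held 1 strain, so strain and array set cannot be told apart.

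Of the 7 tested genes the 3 ephrins had mean ratios above 0 and 3 of the 4 receptors below 0, Epha4 only just. Efna2 and Efnb2, both ligands, had mean ratios of 0.44 and 0.38, and Epha7, a receptor, had a mean ratio of -0.53. None of them passed after adjustment over all features. In the limma fit of both strains 0 of the 7 tested genes had an adjusted p under 0.05, as had 0 of 14418 features (0%), while 3 of the 7 had an unadjusted p under 0.05, against 8.98% of all features. Of these 3, 2 were higher rostrally, against 4.34% of features, and 1 was lower, against 4.64%. With the rest of the family, where 0 of 9 did, the count was 3 of 16, and since the 7 genes were picked with results in view, the share is a description. The median ratio was 0.38 for the 3 tested ephrins and -0.23 for the 4 receptors, beside 0.01 over all features. The count of 3 became 0 without MF1 pool 1 and 0 without C57 pool 3. With arrays not centred on their medians Efna2 and Efnb2 averaged 0.25 and 0.19 and no longer had an unadjusted p under 0.05, while the median of all features was then -0.18. Efna5 had both arrays in only 1 C57 pool and was not tested.

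Among the ligands, Efna2, which encodes ephrin-A2, a repellent known from retinal and thalamic axon maps, had ratios of 0.28, 0.20 and 0.66 in MF1 pools 1 to 3. In C57 pools 1 to 3 its ratios were -0.08, 0.64 and 0.93. Thus 5 of 6 pools lay above 0, as did at least 5 for 14.2% of features with 6 pools, and C57 pool 1 lay just below it. Over the 6 pools the mean was 0.44 ± 0.37 (SD, n = 6), 1.35-fold higher rostrally, with a 95% interval from 0.06 to 0.82 (limma, adjusted p = 0.519). Both arrays of a pool differed by 1.07 on average, the widest gap among the 8 genes, and had the same sign in 3 of 6 pools. In C57 pool 2, for example, the ratio was 1.64 with rostral RNA in Cy5 and -0.36 with rostral RNA in Cy3. The means were 0.54 ± 0.83 with rostral RNA in Cy5 and 0.34 ± 0.66 with rostral RNA in Cy3 (SD, n = 6 arrays each). With the 12 arrays fitted singly, pool as a replicate block, the unadjusted p of Efna2 was 0.066 (limma).

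Efnb2 encodes ephrin-B2, a transmembrane ligand that also marks arterial endothelium. Its ratios were 0.69, 0.13 and -0.03 in MF1 pools 1 to 3 and 0.52, 0.39 and 0.55 in C57 pools 1 to 3. The C57 pools lay close together, while the MF1 pools ran from about 0 up to the highest value of the 6. The mean was 0.38 ± 0.27 (SD, n = 6), 1.30-fold higher rostrally, with a 95% interval from 0.07 to 0.69 (limma, adjusted p = 0.505). It averaged 0.38 ± 0.41 on arrays with rostral RNA in Cy5 and 0.37 ± 0.38 on those with rostral RNA in Cy3 (SD, n = 6 arrays each), but the orientations differed within each strain. With rostral RNA in Cy5 the mean was 0.03 in MF1 and 0.72 in C57, and with rostral RNA in Cy3 it was 0.49 in MF1 and 0.25 in C57. The signs of both arrays matched in 5 of 6 pools, 4 of them above 0. Of the endothelial markers 8 of 8 were tested, 3 were above 0 and 5 below, 0 had an unadjusted p under 0.05, and their median was -0.02, with pool medians from -0.14 to 0.07. Esm1, another endothelial gene that is not on that list, was at 0.38 and had the pool ratios most like those of Efnb2. The part of endothelium in the Efnb2 ratio was not tested.

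Efna5, the gene of ephrin-A5, which is known for a restricted pattern over the cortical areas and for repelling thalamic and limbic axons, had a value in 4 pools. Its ratios were 0.53, 1.03 and 0.49 in MF1 pools 1 to 3 and 0.33 in C57 pool 3. All 4 lay above 0, with a mean of 0.59 ± 0.30 (SD, n = 4), the highest of the 8 genes. The arrays behind these means were less even: in MF1 pool 1 the ratio was -0.19 with rostral RNA in Cy5 and 1.24 with rostral RNA in Cy3, and both arrays had the same sign in 1 of 4 pools. With 1 pool per strain allowed, Efna5 entered the limma fit of 17589 features at a ratio of 0.51, with adjusted p = 0.439. Efnb1, the X-linked gene of ephrin-B1, which has a role in keeping cortical progenitors in the ventricular zone, lay nearer 0. Its ratios were 0.01, 0.26 and 0.12 in MF1 pools 1 to 3 and -0.57, 0.04 and 0.75 in C57 pools 1 to 3. Although 5 of 6 pools lay above 0, the C57 pools covered both sides. The mean was 0.10 ± 0.43 (SD, n = 6), with a 95% interval from -0.32 to 0.53 (limma, adjusted p = 0.882).

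**Figure D1:**
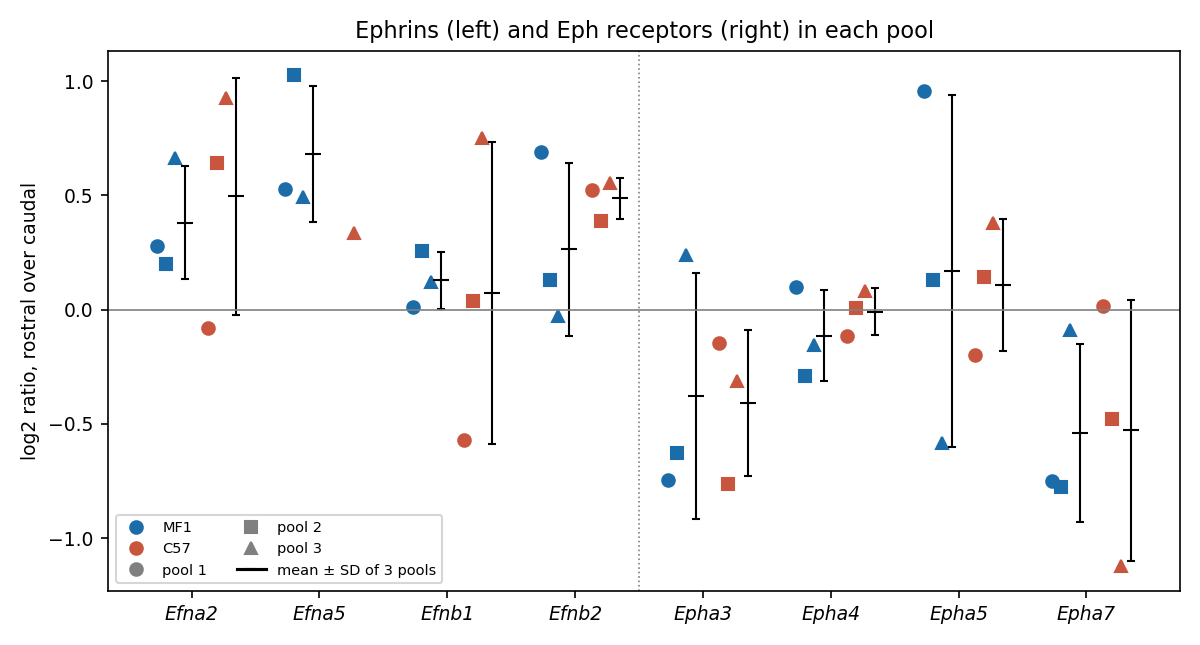
Log2 ratio of rostral over caudal cortex (vertical axis) of the 4 ephrin and 4 Eph receptor genes in each pool, with MF1 in blue left of C57 in red, symbols for pool number, and the mean ± SD of 3 pools in black; Efna5 had 1 C57 pool and no SD there. Efna2, Efnb1 and Efnb2 have 5 of 6 pools above 0, and Epha3 and Epha7 have 5 of 6 pools below 0. Of features with 6 pools, 14.2% had at least 5 above 0 and 12.6% at least 5 below.

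Among the 4 measured receptors Epha7 had the lowest mean ratio. It encodes a receptor of A class ephrins that is known for shaping the cortical targets of thalamic axons and for a role in the survival of neural progenitors. Its ratios were -0.75, -0.78 and -0.09 in MF1 pools 1 to 3 and 0.02, -0.48 and -1.12 in C57 pools 1 to 3. Hence 5 of 6 pools lay below 0, as did at least 5 for 12.6% of features with 6 pools. MF1 pool 3 and C57 pool 1 lay near 0, and C57 pool 3 was the lowest. The mean was -0.53 ± 0.44 (SD, n = 6), 1.45-fold lower rostrally, with a 95% interval from -0.97 to -0.10 (limma, adjusted p = 0.493). Of its 12 arrays 10 were below 0, with means of -0.48 ± 0.60 with rostral RNA in Cy5 and -0.59 ± 0.51 with rostral RNA in Cy3 (SD, n = 6 arrays each). Among all tested features 4.29% had a lower ratio.

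Epha3 encodes another receptor of A class ephrins. Its ratios were -0.75, -0.63 and 0.24 in MF1 pools 1 to 3 and -0.15, -0.76 and -0.31 in C57 pools 1 to 3. MF1 pool 3 was the only pool above 0. The mean was -0.39 ± 0.40 (SD, n = 6), with a 95% interval from -0.80 to 0.01 (limma, adjusted p = 0.561). Its arrays agreed best among the 8 genes: both arrays of a pool differed by 0.31 on average and had the same sign in 5 of 6 pools, 4 of them below 0. The mean was -0.39 ± 0.48 with rostral RNA in Cy5 and -0.40 ± 0.40 with rostral RNA in Cy3 (SD, n = 6 arrays each).

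**Figure D2:**
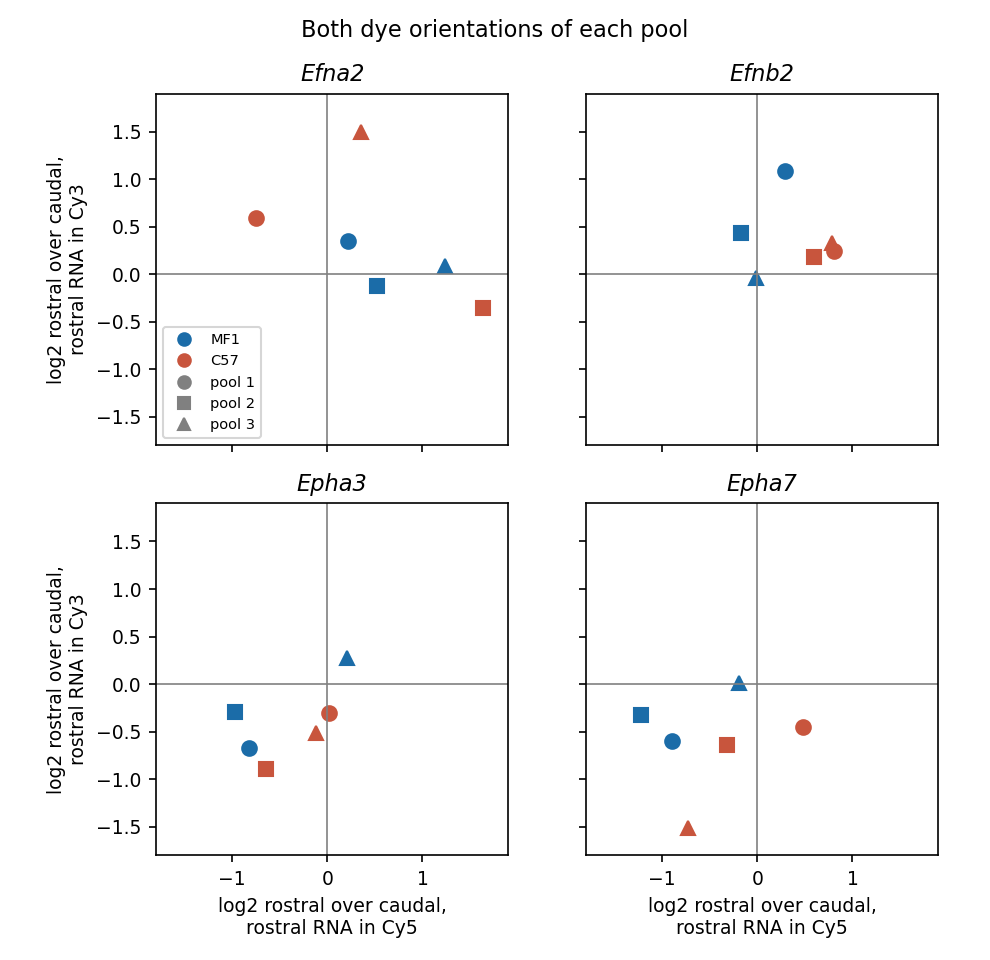
Log2 ratio of rostral over caudal cortex on the array with rostral RNA in Cy5 (horizontal axis) against that on the array with rostral RNA in Cy3 (vertical axis), 1 point for each pool, coloured by strain, for 4 genes. For Epha3 4 pools lie at the lower left, where both arrays are below 0, and for Efnb2 4 lie in the upper right; for Efna2 both arrays have opposite signs in 3 of 6 pools.

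Epha4, a receptor that binds ephrins of both classes, was measured by 2 probes and gave ratios of 0.10, -0.29 and -0.15 in MF1 pools 1 to 3. In C57 pools 1 to 3 it gave -0.12, 0.01 and 0.08. Those values straddled 0 in both strains, and the mean was -0.06 ± 0.15 (SD, n = 6), with a 95% interval from -0.32 to 0.20 (limma, adjusted p = 0.884). Its 2 probes disagreed in sign: the first averaged -0.16 over 6 pools, and the second averaged 0.11 over 5 pools. Epha5, a receptor known from graded expression in the forebrain, had the widest spread among MF1 pools, at 0.96, 0.13 and -0.58 in pools 1 to 3, and lay at -0.20, 0.15 and 0.38 in C57 pools 1 to 3. Its mean of 0.14 ± 0.52 (SD, n = 6) had a 95% interval from -0.36 to 0.63 (limma, adjusted p = 0.860). Epha5 averaged 0.34 ± 0.61 with rostral RNA in Cy5 and -0.07 ± 0.72 with rostral RNA in Cy3 (SD, n = 6 arrays each). Within MF1 these means were 0.01 and 0.32, both above 0, and within C57 they were 0.68 and -0.46.

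Ordered by mean ratio the genes ran Efna5, Efna2, Efnb2, Epha5, Efnb1, Epha4, Epha3 and Epha7, from high to low. Neighbours in this order differed by less than the larger of their SDs over pools, and the order is a description. The 4 ephrins took the first 3 places and the fifth. Pairing each ephrin with each receptor within a pool removes any offset of the array, since both genes were read on the same 2 arrays. Of the 16 pairs 15 had a mean difference, ephrin minus receptor, above 0, and 73 of 88 single pool values were above 0. In 7 pairs the difference was above 0 in every pool measured. For Efnb2 minus Epha4 it was 0.44 ± 0.18 (SD, n = 6), for Efnb2 minus Epha7 0.91 ± 0.59 and for Efna2 minus Epha3 0.83 ± 0.51, each above 0 in 6 of 6 pools. The exception was Efnb1 minus Epha5 at -0.04 ± 0.58 (SD, n = 6). These pairs share genes and arrays, and no test was made over them. The order of the means given above nearly fixes the count of 15, so that count restates the order. The genes were picked with results in view, and no share over other gene pairs is given.

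The means over ephrins and over receptors were also compared by pool. In MF1 pools 1 to 3 the ephrin mean was 0.38, 0.40 and 0.31, and the receptor mean was -0.11, -0.39 and -0.15. In C57 pools 1 to 3 the ephrin mean was -0.04, 0.36 and 0.64, and the receptor mean was -0.11, -0.27 and -0.24. The gap was narrowest in C57 pool 1, at 0.07, where Efna2 and Efnb1 were below 0 and Efna5 had no value, and widest in C57 pool 3, at 0.89. For the rest of the family the same gap was 0.66, -0.01 and 0.36 in MF1 pools 1 to 3 and 0.17, 0.30 and -0.14 in C57 pools 1 to 3, so it had no common sign there.

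**Figure D3:**
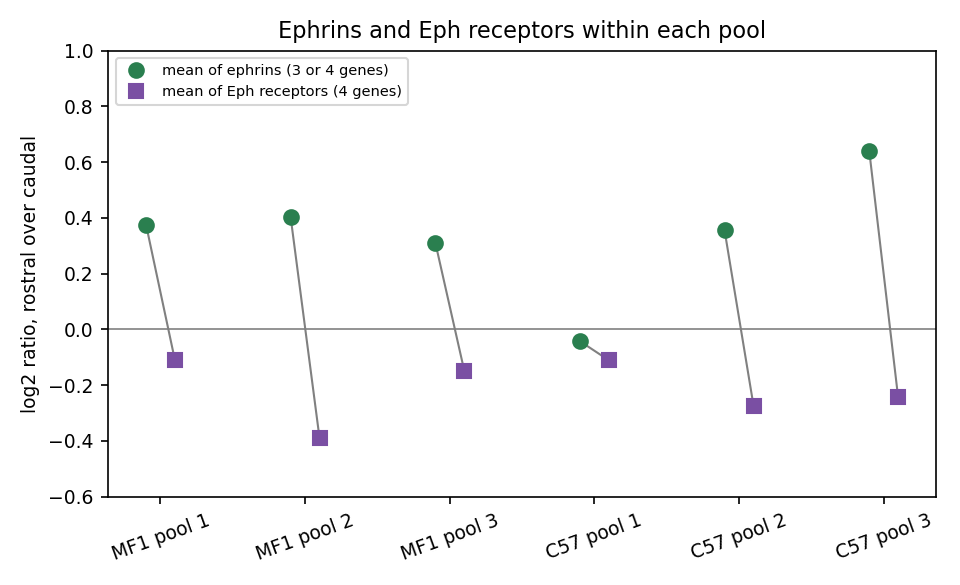
Mean log2 ratio of rostral over caudal cortex in each pool (horizontal axis, MF1 before C57) for the ephrin genes Efna2, Efna5, Efnb1 and Efnb2 (green circles, without Efna5 in C57 pools 1 and 2) and the receptor genes Epha3, Epha4, Epha5 and Epha7 (purple squares), joined within a pool. The ephrin mean is above the receptor mean in each of the 6 pools, by 0.07 in C57 pool 1 and by 0.46 to 0.89 in the others.

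Between the strains the means of the 7 tested genes differed by -0.22 to 0.06, MF1 minus C57. Epha7 averaged -0.54 ± 0.39 in MF1 and -0.53 ± 0.57 in C57, Epha3 averaged -0.38 ± 0.54 in MF1 and -0.41 ± 0.32 in C57, and Efna2 averaged 0.38 ± 0.25 in MF1 and 0.50 ± 0.52 in C57 (SD, n = 3 pools each). The widest difference among the 7 tested genes was that of Efnb2, at 0.26 ± 0.38 in MF1 and 0.49 ± 0.09 in C57, and its sign differed between the dye orientations, as the values above show. The strain difference, MF1 minus C57, was -0.22 for Efnb2, with a 95% interval from -0.84 to 0.40 (limma, adjusted p = 0.968). None of the 7 genes had an unadjusted p under 0.05 for the strain difference, against 6.1% of all features, and 0 passed after adjustment, as did 0 of 14418 features. The intervals were wide: for Epha7 the difference of -0.01 had a 95% interval from -0.88 to 0.86, so a difference of nearly 1 log2 unit in either direction was within it. Within MF1 alone 0 of the 7 had an unadjusted p under 0.05, against 4.36% of features. In C57 alone there was 1 of the 7, Efnb2 (limma, adjusted p = 0.473), against 9.71% of features, and it was higher, as were 4.23%. After adjustment 0 features passed in either strain.

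Of 12 further genes of the family 11 had a named probe and 9 were tested. None of the 9 had an unadjusted p under 0.05 (limma), 3 were above 0 and 6 below, and their median was -0.06. Among these ligands Efna1, a ligand known from blood vessels, was at -0.21 ± 0.32 (SD, n = 6), with 5 of 6 pools below 0. Efna3 was at -0.03 ± 0.26 and Efnb3, a B class ligand of the nervous system midline, at -0.06 ± 0.27 (SD, n = 6). The probes of Efna3 averaged 0.12 and -0.18. Efna4 averaged 0.66 ± 0.89 (SD, n = 5 pools), carried by MF1 pool 1 at 2.23, while the other 4 pools lay between 0.11 and 0.46. Among the receptors, Ephb3 was at 0.23 ± 0.36, Epha6 at 0.13 ± 0.52 and Epha2 at -0.12 ± 0.40 (SD, n = 6). Ephb4, the receptor of ephrin-B2 known from veins, was at -0.14 ± 0.26, and Ephb6, whose kinase domain lacks activity, at -0.17 ± 0.36 (SD, n = 6). For Ephb3 the mean was -0.15 ± 0.50 with rostral RNA in Cy5 and 0.62 ± 0.51 with rostral RNA in Cy3 (SD, n = 6 arrays each). Epha1 and Epha8 had a single C57 pool, at -2.71 and -1.90, and were not tested. Their MF1 means were -0.43 ± 0.30 and 0.03 ± 0.11 (SD, n = 3). Epha10 had no named probe here.

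**Figure D4:**
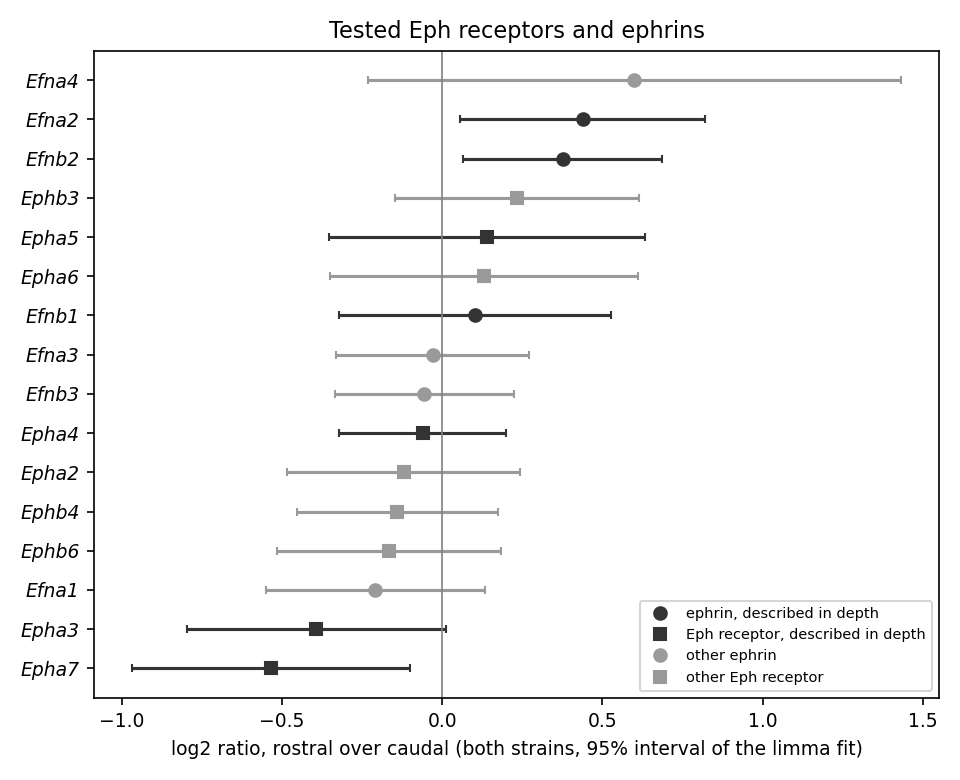
Fitted log2 ratio of rostral over caudal cortex (horizontal axis, both strains with equal weight) with its 95% interval from limma for the 16 tested genes of the family, circles for ephrins and squares for receptors, dark for the genes described in depth. The intervals of Efna2, Efnb2 and Epha7 leave out 0 before adjustment, and those of the other 13 include it.

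Around these receptors, a list of 49 signalling, processing and membrane partners held 41 tested genes. Of these, 2 were higher and 3 lower at an unadjusted p under 0.05, against 8.98% of features on both sides together, and 0 passed after adjustment (limma). Their median was -0.01, with 19 above 0 and 22 below. The 3 of smallest p were Ntrk3, a neurotrophin receptor, at -0.42 ± 0.26, Flrt3, an adhesion molecule that also acts as a repellent, at -0.62 ± 0.50, and Robo1, a receptor of Slit repellents, at 0.38 ± 0.22 (SD, n = 6; limma, adjusted p = 0.484 for each). Robo1 was above 0 in 6 of 6 pools, as were 3.47% of features with 6 pools; having been picked for its small p, it is no fair match for that share. Ntrk3 and Flrt3 were each below 0 in 5 of 6 pools.

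Genes with ratios most like those of Efnb2 over the 6 pools, by the root mean square difference among 8878 other named genes, were Esm1 (0.06), a proteoglycan secreted by endothelial cells, Wee1 (0.10), a kinase that restrains entry into mitosis, and Kdm5c (0.11), a histone demethylase. Those most like Epha7 were Luc7l2 (0.21), a splicing factor, Cep43 (0.21), a centrosomal protein, and Knop1 (0.25), a nucleolar protein. All pools share their arrays between genes, and the likeness is a description.

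Markers of tissue at the edges of the cortex also varied between pools. For choroid plexus and cortical hem, 7 of 7 genes had a probe, 6 were tested, 1 was above 0 and 5 below, and 3 were lower at an unadjusted p under 0.05 (limma), against 4.64% of features. Their pool medians were -0.35, -0.20 and -0.11 in MF1 pools 1 to 3, where Epha7 was at -0.75, -0.78 and -0.09. In C57 pools 1 to 3 they were 0.01, -0.44 and -1.09, where Epha7 was at 0.02, -0.48 and -1.12. Epha3 followed them less closely, at -0.75, -0.63 and 0.24 in MF1 pools 1 to 3 and -0.15, -0.76 and -0.31 in C57 pools 1 to 3. The other Eph and ephrin genes are not set beside these medians, and the comparison is a description. Meningeal and mesenchymal genes had pool medians between -0.15 and 0.11 in MF1 and between -0.51 and -0.44 in C57, with 8 of 9 tested genes below 0 and 3 lower at an unadjusted p under 0.05. In the ventral telencephalon list 8 of 10 genes were tested, 4 on either side of 0, with pool medians from -0.23 to 0.24. Of these 1, Dlx5, named for its small p, was lower at an unadjusted p under 0.05 (-0.63 ± 0.32, SD, n = 6). Thalamic and diencephalic genes, 6 of 8 tested, had 3 on either side, 1 higher at that level, and pool medians from -0.09 to 0.28. For Cajal-Retzius cells, early neurons of the cortical surface, 4 of 6 genes were tested, with pool medians from -0.17 to 0.63. Of these 3 were above 0 and 1, Ebf1, was higher at that level. Ebf1 had a value in 4 pools, 2 above 0 and 2 below, with means of -0.61 in MF1 and 1.82 in C57. Cortical genes, 7 of 8 tested, had 6 above 0, 1 higher and 1 lower at that level, and pool medians from -0.21 to 0.42. The higher one was Pax6 and the lower one Lhx2. Both are also on the rostral and caudal lists used for the sign of the ratios, so they are counted in both places. Of all 14418 features 7437 were above 0 and 6981 below, and at that level 4.34% were higher and 4.64% lower. The part of these tissues in the Eph and ephrin ratios was not tested.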

How the data were processed

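Two-colour arrays of 12 samples measured rostral against caudal neocortex in 6 pools; arrays, not read depth, limit the precision. The deposited values are log2 ratios between the dyes, as read from the values: they are signed, lie around 0 and stop at 16.61. Per the series' design text the cDNA was amplified with the SMART method; the sources used here name no image analysis, background correction, normalization or numerator dye. There were 21998 probes and 0 columns of other samples. The 701 values at that ceiling counted as missing, each array was centred on its median, and arrays with rostral RNA in Cy3 were turned.

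A pool was the mean of its 2 arrays where both had a value. Probes of the same symbol were averaged; 16864 probes had 1 symbol, 139 several (left unnamed) and 4995 none. Features with at least 2 pools per strain (14418, of which 11490 were named genes) entered a limma fit (limma 3.58.1, R 4.3.3; lmFit, then eBayes) with 1 mean for each strain and a common spread, with p-values adjusted by Benjamini-Hochberg over all features at a threshold of 0.05. Comparisons were both strains with equal weight, MF1, C57 and MF1 minus C57. The labels do not say how the litters map to pools, so p-values reflect only how these pools vary, in part perhaps for technical reasons. Across features, the consensus correlation of both arrays of a pool was 0.006. The fit of single arrays with pool as a replicate block thus treated arrays of a pool as nearly independent. By another measure they were partly alike. Before turning, deviations from the mean of arrays with the same strain and dye orientation correlated within a pool (Spearman). The correlations ran from -0.35 in MF1 pool 3 to 0.00 in C57 pool 3, and C57 pool 3 alone was near 0. A negative value before turning is likeness after it. Why both measures differ was not tested. Each pool held 3 embryos per the labels. The fit was tested on simulated data. All 10 genes, every measured gene of the rest of the family, the 3 partners of smallest p and the 3 genes most like Efnb2 and Epha7 are named. The members and lists were chosen with earlier results of these data known. Motifs were sought in RefSeq promoters, and coordinates are given for those alone. Alternatives covered centring, scaling, ceiling values, dye orientation, the unit of the fit, probes, filters and each pool.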

Additional observations from a re-analysis of the deposited data

Results flagged for a closer look

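Efna4, a ligand of the A class outside the 10 chosen genes, had a ratio of 3.35 on the array of MF1 pool 1 with rostral RNA in Cy3, while the other 5 MF1 arrays lay between 0.01 and 1.10. The gap to the nearest array, divided by the range of the 6, was 0.673, above Dixon's critical value at 95%. It was the only one of 40 sets of a probe and a strain in the family to pass this limit, and chance flags about 1 set in 20. Both arrays of a pool share their RNA, so the 6 arrays are not independent samples.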

How the results depend on the processing

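None of the 7 tested genes among the 10 passed after adjustment in the comparison over both strains under the alternatives run; the lowest adjusted p was 0.185, for Epha5 with no array turned, an alternative chosen after seeing the data. Adjusted p under the alternatives was not tabulated gene by gene for the rest of the family, for either strain alone or for the strain difference. Efna2 and Efnb2 stayed above 0, and Epha7 and Epha3 below 0, under every alternative in which arrays were turned. With no array turned they were at 0.10, 0.0030, 0.054 and 0.0055. There the rostral over caudal ratio cancels between both arrays of a pool, so these signs do not bear on it. Some alternatives change the spread or the features tested but not the ratio, so they could not change its sign. An unadjusted p under 0.05 was kept by Epha7 and Efnb2 in 11 of 17 alternatives each and by Efna2 in 8. The count of such genes, 3 of 7, ran from 0 to 3 when a pool was left out: it was 0 without MF1 pool 1 and 0 without C57 pool 3, and it was 1 with no array turned. Signs changed for genes near 0. Epha4 gave 0.0068 with rostral RNA in Cy3 alone and 0.11 for its second probe. Epha5 gave -0.051 with arrays not centred and -0.069 with rostral RNA in Cy3 alone, and ran from -0.059 (without MF1 pool 1) to 0.33 (without MF1 pool 3) when a pool was left out. Efnb1 gave -0.087 with arrays not centred and ran from -0.068 (without C57 pool 3) to 0.26 (without C57 pool 1). Uncentred, all features had a median of -0.18, and 6.64% of those at an unadjusted p under 0.05 were higher in place of 48.3%. Of the features at an unadjusted p under 0.05, 59.4% were higher with rostral RNA in Cy3 alone.

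Features past adjustment over both strains were 0 in the reported fit. They were 25 in the fit of 12 arrays with the pool as a replicate block, 6 among features with a value on all 12 arrays and 253 with no array turned. The replicate block treated the 12 arrays as almost independent, with a correlation of 0.006 within a pool. In MF1 alone that replicate block gave 3. In C57 alone it gave 11, arrays with rostral RNA in Cy5 alone 118, those with rostral RNA in Cy3 alone 188, and no array turned 1371; for the strain difference no array turned gave 45. Of the tested Eph and ephrin genes, 0 had an unadjusted p under 0.05 for the strain difference; it was 1 in each dye orientation alone and 4 with no array turned. Features at an unadjusted p under 0.05 numbered 1295. There were 2168 with arrays not centred, 2592 with rostral RNA in Cy5 alone, 2554 with rostral RNA in Cy3 alone, 2086 with at least 1 pool per strain, 3210 with no array turned, and between 1603 and 2204 when a pool was left out; leaving out the first MF1 pool gave the lowest. With no array turned the rostral over caudal ratio cancels between both arrays of a pool, so those counts are not of rostral and caudal differences. The cause of the other shifts was not tested. Pools of the same number in the strains come from different mice, and their deviations correlated at -0.14, 0.06 and -0.004; with the number as a replicate block 908 features had an unadjusted p under 0.05 and 0 passed. Signal over background is unknown.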
